A study of Mus musculus with 2 samples.

Results

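The upstream miRNA genes of the imprinted Dlk1-Dio3 domain were followed in small RNA of the embryonic mouse midbrain. They are the 10 genes Mir770, Mir673, Mir493, Mir337, Mir540, Mir665, Mir431, Mir433, Mir127 and Mir434, of 1973 miRNA genes with counts. They were chosen by symbol and position: all lie on the plus strand of chromosome 12, from the start of Mir770 at 109563692 to the end of Mir434 at 109594599 (mm10), around Meg3 and Rtl1. The rule uses no measured value. The study sequenced RNA under 30 nt from midbrains of B6NCrl mouse embryos at day 14.5, without any other genotype, treatment or age, and its single group held 2 biological replicates. Per the labels each replicate was 1 midbrain. Both carry the same donor identifier and the same pup and pregnancy number, only their collection days differ, and the sex is given as pooled. Spread between the replicates therefore may not measure spread between unrelated animals.

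The Dlk1-Dio3 domain is expressed by parental origin. Dlk1, Rtl1 and Dio3 are read from the paternal chromosome, while the noncoding RNAs Meg3, Rian and Mirg, the transcript antisense to Rtl1 and the miRNAs between them are read from the maternal chromosome. Rtl1 encodes a protein derived from a retrotransposon, and in mouse the miRNAs that lie opposite to it can direct cleavage of its mRNA, since they match it base for base. Many miRNAs of the domain are known from brain and placenta.

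The layout of the genes gave 2 sides. Mir431, Mir433, Mir127 and Mir434 lay within the coding exon of Rtl1, on the strand opposite to it, and each hairpin was an exact complement of the Rtl1 mRNA over its whole length. The other 6 genes lay before Rtl1 and are called the Meg3 side here. Of these Mir770 was inside Meg3, in an exon of 1 and in an intron of 3 of the 4 annotated transcripts that span it, and the other 5 overlapped no other annotated gene on their strand. All 10 hairpins had the same positions in the RefSeq table of build GRCm38.p6, from which their 20 mature arms were taken. In that table none of the 10 hairpins shared an exact stretch of 20 nt with a miRNA hairpin elsewhere. The deposited counts are per hairpin and do not separate the arms.

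The mature arms of the 4 genes opposite to Rtl1 are shown first because these genes held most of the reads. Capitals mark the seed, bases 2 to 8 from the 5′ end, which pairs with targets.
miR-431-5p: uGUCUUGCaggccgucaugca
miR-431-3p: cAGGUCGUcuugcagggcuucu
miR-433-5p: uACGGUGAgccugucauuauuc
miR-433-3p: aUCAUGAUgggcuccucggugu
miR-127-5p: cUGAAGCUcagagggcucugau
miR-127-3p: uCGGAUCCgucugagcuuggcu
miR-434-5p: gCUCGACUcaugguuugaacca
miR-434-3p: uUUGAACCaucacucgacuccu

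Each of these 8 arms had 1 fully complementary site in the Rtl1 mRNA. One site per gene is shown 5′ to 3′ as read from the minus strand (mm10, GENCODE M21 transcript), with the bases opposite to the seed in capitals. Because Rtl1 runs the other way, the site of miR-434-3p came first, at codons 273 to 280 of 1744, followed by miR-127-3p at codons 832 to 839, miR-433-3p at codons 1201 to 1208 and miR-431-5p at codons 1642 to 1649.
miR-434-3p site, chr12:109594565-109594586: aggagucgagugauGGUUCAAa
miR-127-3p site, chr12:109592888-109592909: agccaagcucagacGGAUCCGa
miR-433-3p site, chr12:109591781-109591802: acaccgaggagcccAUCAUGAu
miR-431-5p site, chr12:109590459-109590479: ugcaugacggccuGCAAGACa

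On the Meg3 side the arms of Mir770 and Mir337, its most abundant genes, and of Mir493, its least abundant, are shown with the seed in capitals. None of the 12 arms of the Meg3 side had a full complement in Rtl1.
miR-770-5p: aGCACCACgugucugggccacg
miR-770-3p: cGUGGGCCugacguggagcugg
miR-337-5p: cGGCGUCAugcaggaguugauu
miR-337-3p: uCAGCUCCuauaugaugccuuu
miR-493-5p: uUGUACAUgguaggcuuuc
miR-493-3p: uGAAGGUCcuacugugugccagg

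The genes did not form a seed family. No seed was shared between any 2 of the 20 arms, and only 2 arms shared theirs with another mature miRNA of the table, miR-673-5p with miR-6985-3p and miR-540-3p with miR-6915-5p. Their hairpins were also unlike: the longest stretch common to 2 of them was 11 nt, in Mir337 and Mir431, and all other pairs shared at most 8 nt. Within hairpins, Mir434 held the longest direct repeat, a stretch of 13 nt that occurred 2 times. Mir431 and Mir540 came next, each with a stretch of 10 nt; capitals mark the repeats of Mir434 and Mir431 here.
Mir434 hairpin: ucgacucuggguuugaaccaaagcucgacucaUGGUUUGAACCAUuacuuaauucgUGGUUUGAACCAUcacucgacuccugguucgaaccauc
Mir431 hairpin: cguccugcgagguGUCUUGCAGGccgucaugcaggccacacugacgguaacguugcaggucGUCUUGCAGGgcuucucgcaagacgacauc

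Replicate 1 held 7302633 sense reads (reads on the annotated strand of miRNA genes) and replicate 2 held 3966727. Levels are in CPM, the usual unit that scales each library's sense reads to a common total, and 1 read stood for 0.137 CPM in replicate 1 and 0.252 CPM in replicate 2. Reads mapping to several places, 36.2% and 36.9% of all reads in replicates 1 and 2, are not in them. Of 9 neural marker miRNAs 7 were detected, with a summed level of 35397 CPM (replicate 1) and 40285 CPM (replicate 2); Mir124a-3 and Mir9-2 fell under 10 reads in replicate 2, and reads common to the copies of these miRNAs are not counted. Markers of each other tissue had lower sums, most of them lower still in replicate 2, but the sums cover unlike numbers of markers. The vessel marker Mir126a alone had 27037 and 18011 CPM in replicates 1 and 2. Mir149, the highest neural marker, had 17015 and 18011 CPM. In replicates 1 and 2 the 2 vessel markers with a count summed to 32460 and 21706 CPM, the 3 mesenchyme markers to 232 and 64.3 CPM, the 2 red cell markers to 476 and 142 CPM, and the myeloid marker Mir223 stood at 212 and 24.5 CPM. The 3 skeletal muscle markers summed to 23.0 and 30.0 CPM with Mir133a-1 at 0 reads in both, and the liver marker Mir122 had 14.1 and 10.3 CPM. Of the 3 mesenchyme markers 1 was detected, and of the 3 muscle markers also 1.

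All 10 genes passed the detection limit of 10 reads in each of the libraries, against 20.1% of all miRNA loci, and the gene with the fewest reads, Mir493, had 314 and 135. Their summed count was 102618 in replicate 1 and 69244 in replicate 2, or 1.58% ± 0.241 of the sense reads (SD, n = 2). Their median level was 9.78 on the log2(CPM + 1) scale, beside a median of 6.91 for the 397 detected loci of all chromosomes, and 8 of the 10 lay above the median CPM of detected loci. Mir673 and Mir493 lay below it, at the level that 43.8% and 35.0% of detected loci fell short of. These values describe the list of symbols, not every locus of the stretch. The list leaves out Mir3070a, with 15 and 14 reads in replicates 1 and 2, and Mir3070b, with 0 and 3. Both lie between Mir665 and Mir431.

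The genes opposite to Rtl1 were the 4 most abundant of the 10 in both libraries. Mir127, the best known of them for its effect on Rtl1 in the placenta, had 5113 CPM in replicate 1 (exact Clopper-Pearson 95% interval 5061 to 5165, for counting error only, since reads of amplified molecules are not independent) and 6370 CPM in replicate 2 (6292 to 6449). It averaged 5741 ± 889 CPM (SD, n = 2). By this mean it ranked in place 32 of all loci, and in place 39 in replicate 1 and 31 in replicate 2. Just above it by the mean stood the neural Mir153 at 5876 ± 843 CPM and just below it Mirlet7d at 5641 ± 442 CPM. Mir127 differed from neither beyond its SD, and in replicate 1 it was below Mirlet7d, which had 5954 CPM. These ranks leave out reads mapping to several places. Mir127 (ENSMUSG00000070076.1) lies from 109592846 to 109592915 on chromosome 12 (mm10).

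Mir431, studied in mouse for the regrowth of sensory axons, had 2780 CPM in replicate 1 and 3375 CPM in replicate 2, with a mean of 3077 ± 421 CPM. Its hairpin (ENSMUSG00000070080.1) lies from 109590447 to 109590537. Mir434 (ENSMUSG00000070133.1, 109594506 to 109594599) had 2377 CPM in replicate 1 and 2865 CPM in replicate 2, a mean of 2621 ± 345 CPM. Mir431 was above Mir434 in both libraries, by a near constant factor of 1.17 ± 0.00604. Mir433 (ENSMUSG00000070072.1, 109591715 to 109591838) was the lowest opposite to Rtl1, with 1468 CPM in replicate 1 and 2009 CPM in replicate 2, and varied most of the 4 with a coefficient of variation of 22.0%. Even so, Mir433 exceeded the highest gene of the Meg3 side 1.72-fold in replicate 1 and 2.02-fold in replicate 2. Among these 10 genes the sides therefore did not overlap in either library. This does not extend to every miRNA locus within Rtl1, since Mir432, outside the list, had no read in either library. A row that GENCODE M21 calls Mir3071, of unsettled strand, had 393 and 487 CPM in replicates 1 and 2, below Mir770 and Mir337.

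**Figure D1:**
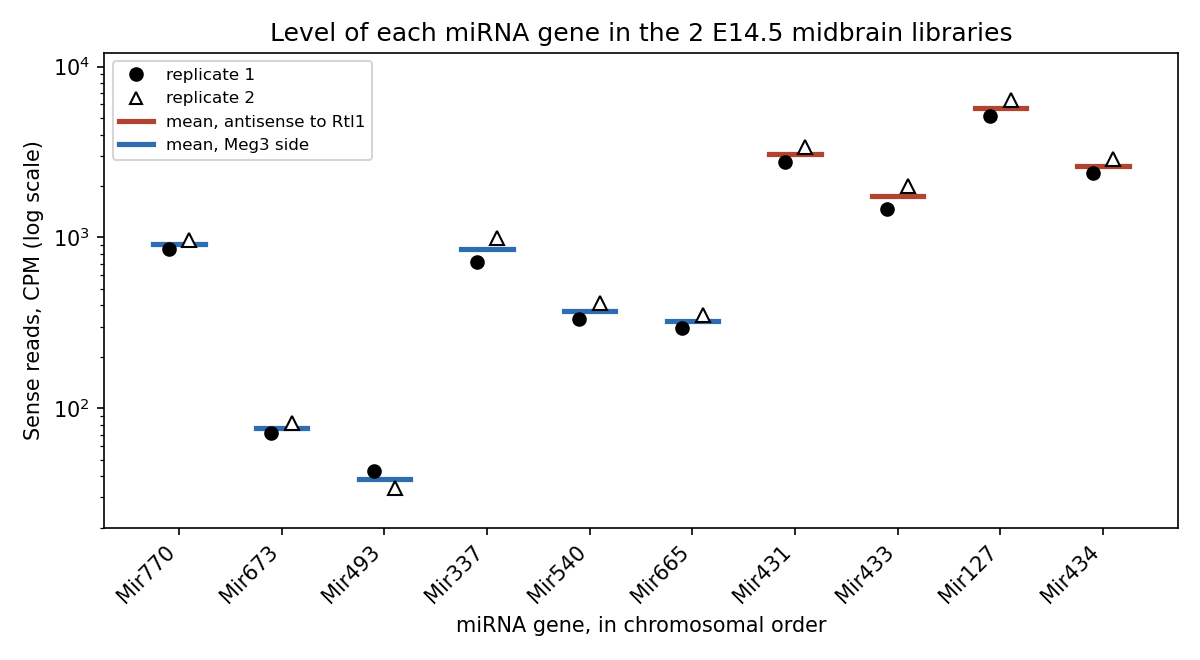
Level of the 10 miRNA genes in CPM (y axis, log scale) in chromosomal order (x axis). Filled circles are replicate 1, open triangles replicate 2, and bars their mean, red for genes antisense to Rtl1 and blue for the Meg3 side; the red genes sit between 1468 and 6370 CPM and the blue ones between 34.0 and 994 CPM.

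On the Meg3 side Mir770 and Mir337 stood highest. Mir770 (ENSMUSG00000076451.1, 109563692 to 109563785), the gene inside Meg3, had 855 CPM in replicate 1 and 966 CPM in replicate 2, with a mean of 910 ± 78.5 CPM. Mir337 (ENSMUSG00000065526.3, 109585789 to 109585885) had 721 CPM in replicate 1 and 994 CPM in replicate 2, and its coefficient of variation, 22.5%, was the largest of the 10. Their order was not resolved: Mir770 was higher in replicate 1, Mir337 in replicate 2, and the gap between their means, 52.9 CPM, was smaller than the SD of Mir337, 193 CPM.

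Mir337, Mir540 and Mir665 lie close together and differed in level. The gap from Mir337 to Mir540 (ENSMUSG00000072900.1, 109586080 to 109586146) is 194 bp and that from Mir540 to Mir665 (ENSMUSG00000076313.1, 109586314 to 109586407) is 167 bp. Mir540 had 331 CPM in replicate 1 and 411 CPM in replicate 2, and Mir665 had 294 CPM in replicate 1 and 350 CPM in replicate 2. Mir337 exceeded Mir540 2.30 ± 0.167-fold and Mir665 2.65 ± 0.272-fold. Mir540 was above Mir665 in both libraries, 1.15 ± 0.0350-fold, although the gap between their means, 49.0 CPM, was smaller than the SD of Mir540, 57.2 CPM.

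Mir673 and Mir493 were the lowest. Mir673 (ENSMUSG00000076316.1, 109571990 to 109572080), the first gene past the end of Meg3, had 71.8 CPM in replicate 1 and 81.4 CPM in replicate 2. Mir770, its neighbour 8204 bp before it, was 11.9 ± 0.0364-fold higher. Mir493 (ENSMUSG00000077025.2, 109580233 to 109580315) had 43.0 CPM in replicate 1 and 34.0 CPM in replicate 2, a mean of 38.5 ± 6.34 CPM. Mir127 exceeded Mir493 119-fold in replicate 1 and 187-fold in replicate 2. A read of a small RNA library covers a whole mature miRNA, so these counts were not divided by length; differences between miRNAs in ligation or amplification were not tested.

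Ordered by mean CPM, the genes ran Mir127, Mir431, Mir434, Mir433, Mir770, Mir337, Mir540, Mir665, Mir673 and Mir493. Of the 9 pairs of neighbours in this order 7 differed by more than the larger of their SDs, the exceptions being Mir770 with Mir337 and Mir540 with Mir665. The order was the same in both libraries for 8 of the 9 pairs. Along the chromosome the level had no steady course: after Mir770 it was lowest at Mir673 and Mir493, near that of Mir770 again at Mir337, lower at Mir540 and Mir665, and highest over Rtl1.

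**Figure D2:**
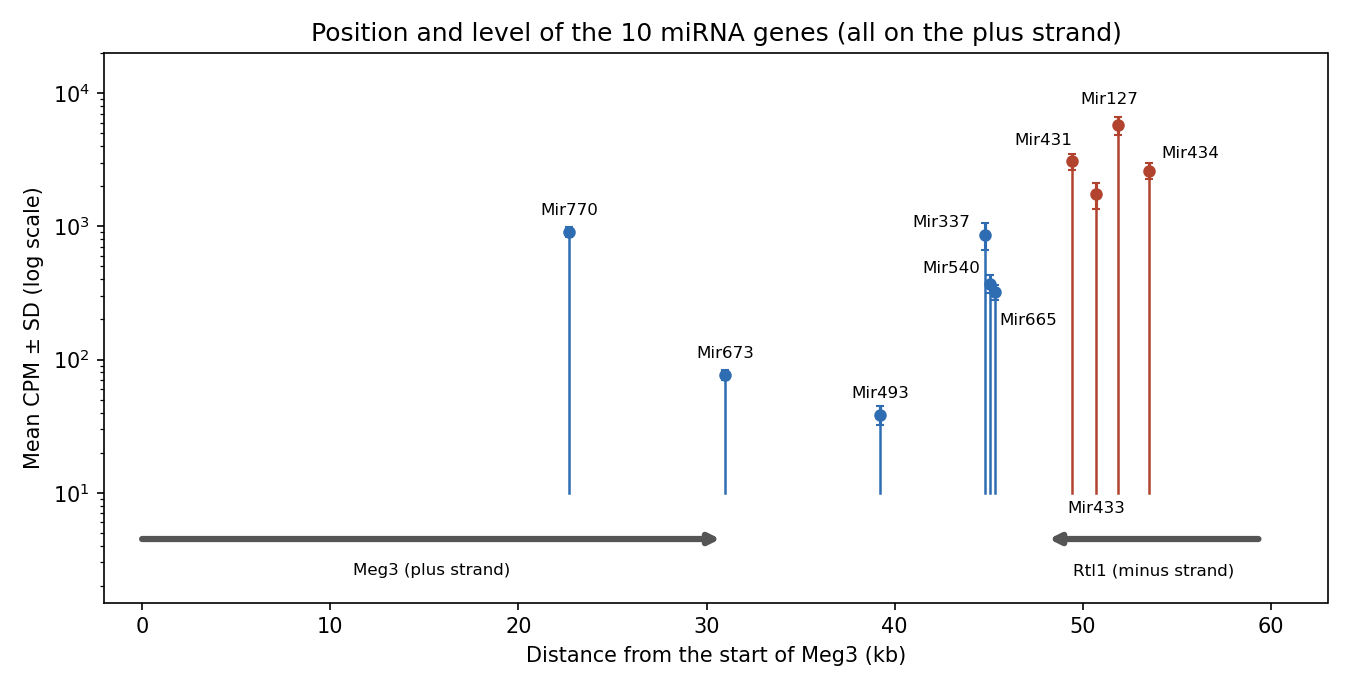
Mean CPM ± SD (y axis, log scale, n = 2) of the 10 genes against their distance from the start of Meg3 in kb (x axis); stems only mark positions, and arrows below show Meg3 and Rtl1 with their direction. The 4 genes within Rtl1 (red) stand above the 6 before it (blue), whose means run between 38.5 and 910 CPM.

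The division of reads between the sides was nearly the same in both libraries. The genes opposite to Rtl1 took 83.5% of the group's reads in replicate 1 and 83.7% in replicate 2, and the Meg3 side took 16.5% and 16.3%. In summed CPM the Rtl1 side stood at 13179 ± 2038 and the Meg3 side at 2576 ± 369, a ratio of 5.11 ± 0.0580; by geometric mean the ratio was 11.7 ± 0.886. Mir127 alone took 36.4% of the reads in replicate 1 and 36.5% in replicate 2. The shares of Mir433 and Mir337 were larger in replicate 2, at 10.4% and 11.5% for Mir433 and at 5.13% and 5.69% for Mir337 in replicates 1 and 2. The share of Mir770 was smaller in replicate 2, at 6.08% in replicate 1 and 5.53% in replicate 2. The largest relative change was that of Mir493, whose share was 0.306% in replicate 1 and 0.195% in replicate 2.

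**Figure D3:**
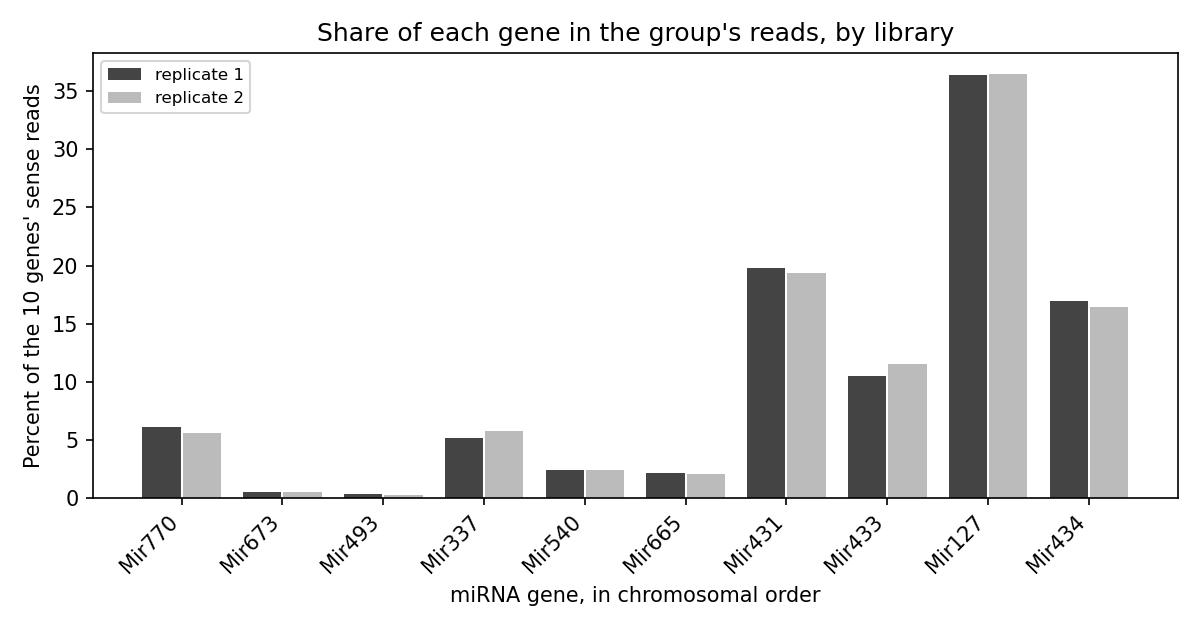
Percent of the sense reads of the 10 genes that each gene took (y axis) in replicate 1 (dark bars) and replicate 2 (light bars), in chromosomal order (x axis). Mir127 took 36.4% and 36.5%, and Mir673 and Mir493 together under 1% in each library.

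Between the libraries 9 of the 10 genes were higher in replicate 2 and Mir493 was lower. Ratios here are log2(replicate 2/replicate 1) after TMM scaling in edgeR, a scaling to a trimmed mean of the ratios of all loci, and compare 2 libraries of 1 group, so no test between conditions applies. Of all detected loci 50.4% were higher in replicate 2. The median ratio of the 10 genes was 0.19, beside 0.01 for all detected loci. None of the 10 differed by more than 1.5-fold, against 16.6% of detected loci, and 3 differed by more than 1.2-fold, against 45.6%. The detected loci reach down to a mean of 1.95 CPM, below all 10 genes, so counting error is not alike in these lists.

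Mir337 and Mir433 had the largest ratios towards replicate 2, at 0.37 and 0.36. Their 95% counting intervals were 0.31 to 0.43 for Mir337 and 0.32 to 0.40 for Mir433. Both lay above those of Mir431, Mir127 and Mir434, whose ratios were 0.19, 0.23 and 0.18. Mir540 and Mir665 had ratios of 0.23 and 0.16. The interval of Mir540, 0.135 to 0.318, overlapped that of Mir337, which began at 0.315. Mir770 and Mir673 were nearly even, at 0.09 each, and the interval of Mir673, from -0.11 to 0.30, included 0. Mir493 stood apart at -0.43, with a counting interval of -0.73 to -0.13. Without Mir493 the ratios of the other 9 genes lay between 0.09 and 0.37. The counting interval excluded 0 at 9 of the 10 genes. It takes in counting error only, not differences between preparations or animals. It was not computed for the other detected loci, so this count shows nothing particular to the 10 genes. With the same scaling the 7 detected neural markers ran from -0.47 at Mir124a-1 to 0.20 at Mir153. Of the 8 detected markers of other tissues 7 were lower in replicate 2, from -0.54 at Mir122 to -3.20 at Mir223, and the muscle marker Mir206 was higher at 0.30. The part of these cell types in the ratios of the 10 genes was not tested, and in a bulk sample fewer cells of a type and less RNA per cell cannot be told apart.

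**Figure D4:**
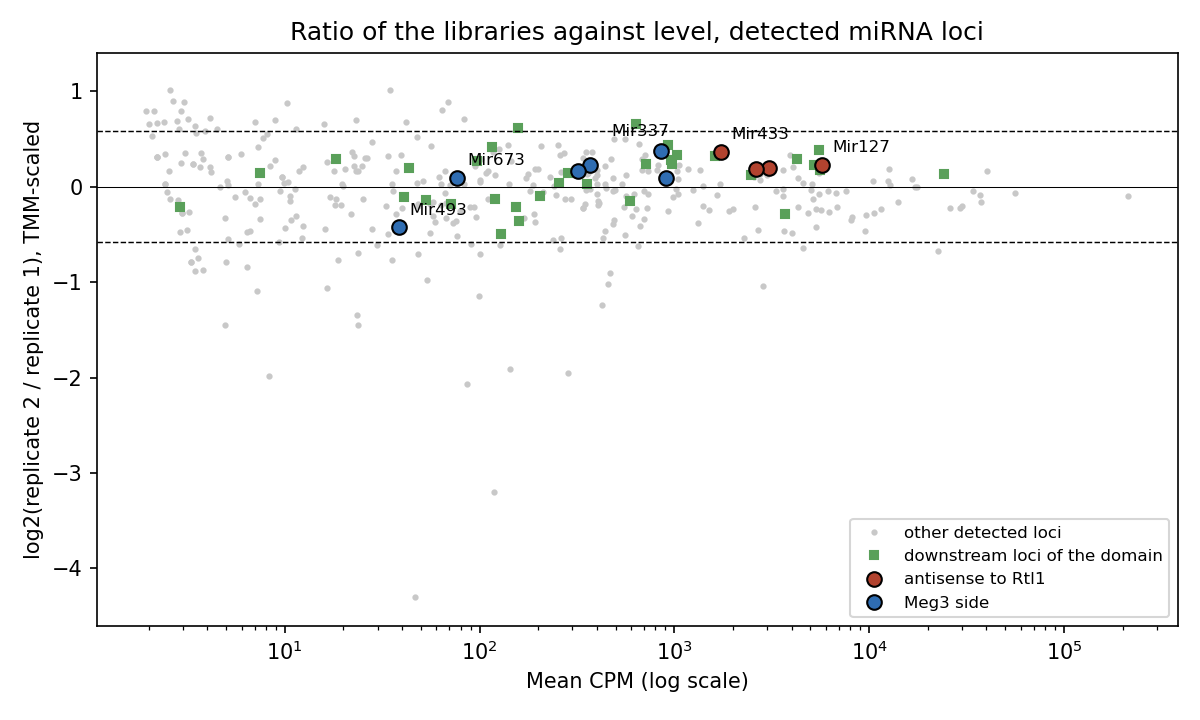
TMM-scaled log2(replicate 2/replicate 1) (y axis) against mean CPM (x axis, log scale) for the 397 detected loci: red and blue circles are the 10 genes by side, green squares the downstream loci of the domain, grey dots the others, and dashed lines mark 1.5-fold. All 10 circles lie within the dashed lines, with Mir493 the only one below 0.

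Besides the 10 genes, 4 miRNA loci with a row that GENCODE M21 places on the plus strand lie between the first base of Meg3 (109541001) and the far end of Rtl1 (109600330), and 1 of them was detected. Mir3070a, between Mir665 and Mir431, had 15 reads in replicate 1 and 14 in replicate 2, and its near-identical neighbour Mir3070b had 0 and 3 reads, and reads that fit both places are not in these counts. Mir1906-1, inside Meg3, and Mir432, inside Rtl1, had no read in either library. For uniquely mapped reads such a count allows a level of at most 3 reads, or 0.411 CPM in replicate 1 and 0.756 CPM in replicate 2. Reads that fit several places are not counted, so this limit does not cover them. Another row, which GENCODE M21 calls Mir3071, lies inside the Rtl1 exon. On its annotated strand this locus had 2868 reads (393 CPM) in replicate 1 and 1932 reads (487 CPM) in replicate 2. This locus was singled out after its values were seen. M21 places Mir3071 on the minus strand with Mir136 opposite to it on the plus strand, and Mir136 has no row of its own. The counts were made with the earlier release M4 and no source used here gives the strand of this row there, so which of them was counted cannot be told apart.

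The part of the domain downstream of these genes, towards Rian and Mirg, held more reads. The 10 upstream genes took 1.41% of sense reads in replicate 1 and 1.75% in replicate 2, and the 40 plus-strand loci from there to Mir3072, which ends at 109747960, took 5.54% and 6.62%. The downstream sum was 3.94 times the upstream sum in replicate 1 and 3.79 times in replicate 2, so that the upstream genes supplied 20.5% ± 0.458 of the reads of both. Downstream 34 of 40 loci were detected, led by Mir487b at 24176 ± 2584 CPM and Mir411 at 5617 ± 727 CPM, near the level of Mir127; Mir432, Mir882, Mir654, Mir453 and Gm23912 were lowest with no read. The median level of the 10 upstream genes, 9.78 on the log2(CPM + 1) scale, stood beside 8.08 for the 34 detected downstream loci. The 10 are a list of symbols and leave out Mir3070a, which was detected at a mean of 2.79 CPM. The median ratio was 0.19 for the 10 upstream genes and 0.15 for the 34 downstream loci. Of these 34 loci, 23 were higher in replicate 2 and only 2 differed by more than 1.5-fold, so a small difference was not particular to the upstream genes. All of these values come from the same 2 libraries, and a difference between the parts was not tested.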

How the data were processed

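The authors deposited 1 table of raw read counts per library, with a count for both strands, the annotated strand (sense) and the opposite strand of each miRNA gene. Per the text deposited beside them, the tables were made on mm10 with annotation M4, the aligner and the counter not given in the sources used here. Rows that name no gene held 58.3% of reads in replicate 1 and 57.7% in replicate 2 and stayed out of library totals.

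Identifiers were matched to GENCODE M21 (same assembly, 1894 of 1973 matched). Hairpins were matched to RefSeq by symbol and position, and mature miRNAs were taken from RefSeq. CPM used the sense total; means and SDs are over 2 libraries; intervals are exact Clopper-Pearson. Ratios used TMM in edgeR 4.0.16 (R 4.3.3). The scaling was also run on simulated data with counting error only and as many loci raised as lowered. That setting is simpler than these libraries, so it does not vouch for their ratios. No test between conditions was possible with 1 group, so the text rests on levels, ratios and counts of loci. The rule for the members uses symbol and position alone, but this group of genes, the marker lists and the comparisons were proposed with earlier results of these data known. All 10 genes are named. Other named loci are those in the window, the 2 highest and the lowest downstream, the neighbours of Mir127 in rank and the markers. Alternatives were other scalings (DESeq2 1.42.0 size factors, plain totals), read minimums, pseudocounts, strands, and each library left out.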

Additional observations from a re-analysis of the deposited data

Results flagged for a closer look

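Opposite-strand reads, which enter none of the comparisons above, were found at 1 of the 10 genes. Mir337 had 8 such reads in replicate 1 and 5 in replicate 2, above the 3 reads that a count of 0 allows, and they made up 0.152% and 0.127% of its reads. The other 9 genes had no opposite-strand read in either library, Rtl1-antisense genes included. GENCODE M21 annotates Mir3544 opposite to Mir337 and has no row for it here. The source of these reads was not tested.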

How the results depend on the processing

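Of 77 alternatives over 19 results, 74 left the value within the spread between the replicates or the count within 1.5 times. Many of these could not come out otherwise, so the count of 74 does not measure robustness. Leaving out 1 of 2 libraries always moves their mean by less than their SD. Dropping a read minimum that all 10 genes pass changes nothing either. As a share of all reads listed, unassigned classes included, the 10 genes took 0.649%. With plus-strand reads at 4 downstream loci annotated on the minus strand added, an alternative chosen after the data were seen, the downstream sum was 4.57 times the upstream sum. With 1.2-fold in place of 1.5-fold, 3 genes differed between the libraries (Mir337, Mir433 and Mir493). The median ratio was 0.21 with DESeq2 size factors and 0.27 with plain totals, which moved the median of all detected loci to 0.03 and 0.09. Under each, 9 of 10 genes were higher in replicate 2. Of the 397 detected loci, 204 were higher with DESeq2 size factors and 234 with plain totals. No paired analysis was possible because the series has 1 group. With 2 libraries an SD has 1 degree of freedom. Counting error was largest for Mir493 and Mir673, with 135 and 323 reads in replicate 2, while the spread between libraries was largest for Mir337 and Mir433, with coefficients of variation of 22.5% and 22.0%.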
